A study of Mus musculus with 18 samples.

Results

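The coreceptor and CD4-CD8 lineage genes described here are Cd4, Cd8a, Cd8b1, Zbtb7b, Runx1, Runx3, Gata3 and Crtam, 8 genes chosen by name and found by symbol among the 49671 gene models of the count files. All 8 passed the filter on low counts, in an analysis that tested 14080 genes. RNA came from CD8 or CD4 T cells, flow sorted out of melanomas that B16f10-OVA cells, a mouse line making ovalbumin, had formed under the skin of B6 mice in 12 days. Deficient mice with blockade carried a floxed miR-155 gene with CD4cre and received antibodies to PD-1/PD-L1 and to CTLA-4 on days 3, 6 and 9. Deficient mice carried the floxed gene with CD4cre and no antibodies, and floxed mice carried the floxed gene without Cre and no antibodies. A Cre under Cd4 control acts in thymic precursors of both CD4 and CD8 T cells. Each of the 3 conditions gave 3 libraries per sort, 18 in all, and each library pooled cells of 2 to 3 tumors. No floxed group with blockade was analysed here, so blockade is seen in deficient cells only.

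A T cell coreceptor binds the constant part of an MHC molecule and brings the kinase LCK to the T cell receptor. CD4 binds MHC class II and is carried by helper and regulatory cells. CD8 binds MHC class I and is carried by cytotoxic cells as a dimer of an alpha chain (Cd8a) and a beta chain (Cd8b1). In the thymus, ThPOK, the product of Zbtb7b, and RUNX3 restrain each other, and the outcome fixes whether a cell keeps CD4 or CD8. RUNX3 silences Cd4 and ThPOK restrains the CD8 genes and Runx3. RUNX1 works earlier in thymic development and shares its DNA motif and its partner CBFB with RUNX3, and GATA3 acts upstream of ThPOK and later marks Th2 cells. CRTAM is a surface adhesion molecule of activated cytotoxic cells that binds CADM1, and a few CD4 cells with cytotoxic features carry it too.

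Depth ran from 3.2 to 11.65 M counts (M, mega) per library. Over 5% of counts fell on ribosomal-like gene models in floxed CD8 replicate 1, deficient blockade CD8 replicate 2 and deficient CD4 replicate 3. The host transcript of miR-155, Mir155hg, had 0 to 12 counts in each of the 12 libraries of deficient mice and 27 to 196 in the 6 libraries of floxed mice. Other cell types were present in the sorts and differed between the groups. The summed level of 8 melanoma genes averaged 822 ± 717 CPM in deficient blockade CD8 libraries, 2436 ± 956 in deficient CD8 libraries and 165 ± 21.3 in floxed CD8 libraries (SD, n = 3 each). In the CD4 sort this sum averaged 984 ± 816 CPM with blockade, 3188 ± 1252 in deficient libraries and 319.9 ± 269 in floxed libraries. For 8 macrophage and monocyte genes the sum averaged 2954 ± 798 CPM in deficient blockade CD4 libraries, 3223 ± 712 in deficient CD4 libraries and 14080.1 ± 5444 in floxed CD4 libraries. None of these 16 genes was at 0 in any group. In such bulk samples, fewer cells of a type and less RNA per cell cannot be told apart. Levels are CPM, counts per M counts scaled by TMM (trimmed mean of M values), and each fold change comes with the SE of the fit.

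The mature miR-155-5p of RefSeq, from chr16:84714143-84714165 on the plus strand, is shown with its seed, bases 2 to 8, in capitals, since its loss defines the deficient mice.
miR-155-5p: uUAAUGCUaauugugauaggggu
The match to this seed, AGCATTA, was in no annotated 3′ untranslated region of the 8 members. Of 12120 tested genes that have such a region, 10.1% held the match in any of theirs. That says only that these letters are not in those regions.

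The coreceptor transcripts followed the sorts. On GRCm38 both CD8 genes lie side by side on chromosome 6, Cd8b1 at chr6:71322788-71337494 and Cd8a at chr6:71373427-71379173, and Cd4 lies on the same chromosome at chr6:124864692-124888221. Cd8a and Cd8b1 were at 338 CPM or more in every CD8 library, Cd4 was at 233 CPM or more in every CD4 library, and each was lower in the other sort. Since the sorts are labelled by these proteins, this contrast checks the labels and is not a finding. In the CD8 sort Cd8a had 974, 977 and 1166 CPM in deficient blockade libraries, 689.7, 726 and 623 in deficient libraries and 1319, 1446 and 1143 in floxed libraries. Cd8b1 had 520.4, 594 and 640.5 CPM in deficient blockade libraries, 419.5, 405 and 338 in deficient libraries and 572, 741 and 651 in floxed libraries. For both chains every deficient library lay below every blockade library and every floxed library, while blockade and floxed libraries overlapped. Cd4 in the same sort ran from 1.24 to 2.15 CPM with blockade, from 0.892 to 2.38 in deficient libraries and from 0 to 3.13 in floxed libraries. These levels came to at most 0.828% of the mean Cd4 level of the CD4 sort of the same condition. The library at 0, floxed CD8 replicate 3, allows up to 0.533 CPM by a floor of 3 counts per library, which covers counting error only.

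Both CD8 chains had lower values in deficient than in floxed CD8 libraries, a difference that did not pass the threshold in the fit over all libraries. Cd8a averaged 679.6 ± 52.5 CPM in deficient and 1303 ± 152 CPM in floxed CD8 libraries (SD, n = 3 each), a log2 fold change of -0.94 ± 0.62 (edgeR adjusted p = 0.339). Cd8b1 averaged 387 ± 43.6 CPM in deficient and 655 ± 84.8 CPM in floxed CD8 libraries, a log2 fold change of -0.76 ± 0.47 (edgeR adjusted p = 0.299). That fit shares 1 spread estimate per gene between both sorts, and these 2 genes varied widely between CD4 libraries. In an edgeR fit of the CD8 libraries alone the same differences were called, with log2 fold changes of -0.95 (adjusted p = 0.000442) for Cd8a and -0.77 (adjusted p = 0.00216) for Cd8b1. Blockade over deficient gave log2 fold changes of 0.61 ± 0.62 for Cd8a (edgeR adjusted p = 0.576) and 0.59 ± 0.47 for Cd8b1 (0.452). The fit of the CD8 libraries alone called both, at adjusted p = 0.00646 for Cd8a and 0.0114 for Cd8b1.

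Some of the transcripts shared by all T cells differed between the same groups. Of 10 genes of the T cell receptor complex and pan T markers, 4 were called lower with deletion and 4 higher with blockade in the CD8 sort. Over all tested genes, 9.61% were called lower with deletion and 8.25% higher with blockade there. Leaving out 1 library gave 2 to 6 of the 10 lower with deletion and 2 to 7 higher with blockade. Without the 3 libraries rich in ribosomal-like counts, 3 were lower with deletion and 3 higher with blockade. Cd3g, a receptor chain, was lower with deletion by -0.57 ± 0.15 (edgeR adjusted p = 0.00956), while Trac (-0.03 ± 0.17, 0.921) and Cd3d (0.03 ± 0.14, 0.91) were not called. Cd3e was called at -1.79 ± 0.47 (0.0176) and stood at -0.64 (0.0127) without floxed CD8 replicate 1. The sum of the 10 genes averaged 4840 ± 113 CPM in deficient blockade CD8 libraries, 3133 ± 87.7 in deficient CD8 libraries and 4227 ± 510.5 in floxed CD8 libraries. Set against that sum, Cd8a stood at 0.215 ± 0.028 with blockade, 0.217 ± 0.0115 in deficient libraries and 0.308 ± 0.0107 in floxed libraries (SD, n = 3 each). The blockade libraries ran from 0.198 to 0.247 on this scale and the deficient libraries from 0.205 to 0.228, so that they overlapped, while the floxed libraries lay above both at 0.296 to 0.315. Cd8b1 stood at 0.121 ± 0.0145 with blockade, 0.123 ± 0.011 in deficient libraries and 0.156 ± 0.026 in floxed libraries, and here the 3 groups overlapped.

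**Figure D1:**
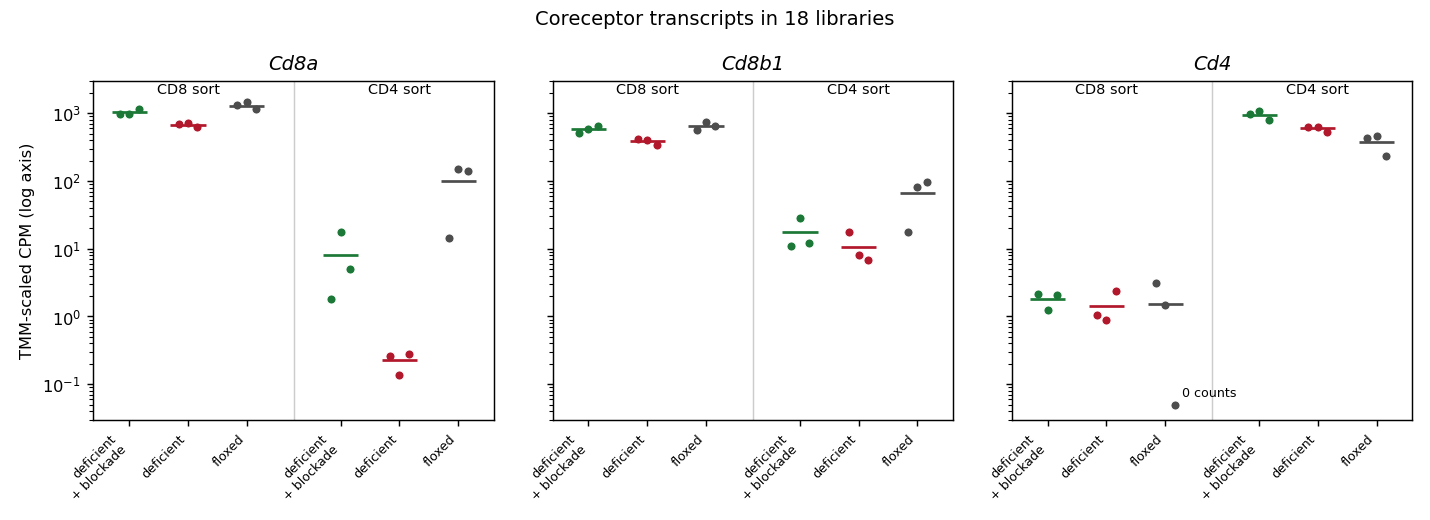
Level of the 3 coreceptor transcripts in each library, in TMM-scaled CPM on a log axis, by sort and condition. Points are libraries, lines are group means, and the library with 0 counts of Cd4 is drawn at the bottom of its axis. Deficient CD4 libraries stand at 0.136 to 0.282 CPM of Cd8a, below all other libraries.

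Reads of both CD8 chains were found in every CD4 library, and fewest Cd8a reads in deficient mice. Cd8a had 1.83, 17.4 and 4.96 CPM in deficient blockade CD4 libraries (21, 58 and 52 counts). It had 0.259, 0.136 and 0.282 CPM in deficient CD4 libraries (2, 1 and 1 counts), against 14.6, 149 and 142 CPM in floxed CD4 libraries (87, 1091 and 570 counts). Every blockade library thus lay above every deficient library, and 1 of them, at 17.4 CPM, lay above floxed replicate 1 at 14.6 CPM. Cd8b1 had 11.1, 28.9 and 12.2 CPM in deficient blockade CD4 libraries, 17.4, 8.15 and 6.77 in deficient CD4 libraries and 17.5, 82.8 and 96.4 in floxed CD4 libraries. The highest deficient library, at 17.4 CPM, almost met the lowest floxed library, at 17.5 CPM. As a share of the mean of the CD8 sort of the same condition, Cd8a came to 0.176%, 1.68% and 0.477% with blockade, 0.0381%, 0.02% and 0.0415% in deficient libraries and 1.12%, 11.5% and 10.9% in floxed libraries.

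In the CD4 sort, 2 of the 8 members were called in deficient against floxed libraries, both lower, beside 11.7% of all tested genes called in either direction and 7.06% called lower. Cd8a had a log2 fold change of -8.77 ± 1.26 (edgeR adjusted p = 0.000943), where the deficient group held 4 counts in all and the floxed group 1748. The ratio of these summed counts, scaled for depth, was 0.00212 with a 95% exact interval of 0.000578 to 0.00545, which covers counting error only. Cd8b1 had a log2 fold change of -2.54 ± 0.55 (edgeR adjusted p = 0.00986). Leaving out any 1 library kept both calls, but limma voom gave Cd8a an adjusted p of 0.115, and the fit of the CD4 libraries alone gave Cd8b1 an adjusted p of 0.0692. Without the 3 libraries rich in ribosomal-like counts Cd8b1 had an adjusted p of 0.0648. Blockade over deficient was not called by edgeR, with log2 fold changes of 4.77 ± 1.66 for Cd8a (adjusted p = 0.304) and 0.52 ± 0.57 for Cd8b1 (adjusted p = 0.782). DESeq2 did call Cd8a there (log2 fold change 5.19, adjusted p = 0.000519), and the summed counts of 131 with blockade and 4 without gave a depth-scaled ratio of 24.1 (95% exact interval 9.2 to 89.8). Treated deficient CD4 libraries lay below floxed ones for both chains, by -4.01 ± 0.79 for Cd8a (edgeR adjusted p = 0.00601) and -2.02 ± 0.53 for Cd8b1 (0.0255). In the fit of the CD4 libraries alone these adjusted p-values were 0.0693 for Cd8a and 0.129 for Cd8b1.

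The 2 chains did not keep the same ratio in the CD4 sort as in the CD8 sort. Over the 9 CD8 libraries there were 0.546 ± 0.053 Cd8b1 counts per Cd8a count (SD, range 0.434 to 0.609). The CD4 libraries had 6.05, 1.66 and 2.46 with blockade, 67, 60 and 24 in deficient libraries and 1.2, 0.554 and 0.681 in floxed libraries. In 8 of the 9 CD4 libraries the ratio was above that of every CD8 library, and floxed replicate 2 lay inside the range of the CD8 libraries. If all Cd8a reads of a CD4 library carried Cd8b1 reads at the mean ratio of the CD8 sort, the Cd8b1 left over would be 10.1, 19.3 and 9.5 CPM with blockade, 17.2, 8.07 and 6.62 CPM in deficient libraries and 9.49, 1.11 and 19 CPM in floxed libraries. The 3 groups overlapped in this remainder, which takes the mean ratio alone. The range of that ratio, 0.434 to 0.609, was not carried through. It weighs most in floxed libraries, where Cd8a reached 149 CPM, so the overlap does not show equal remainders.

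**Figure D2:**
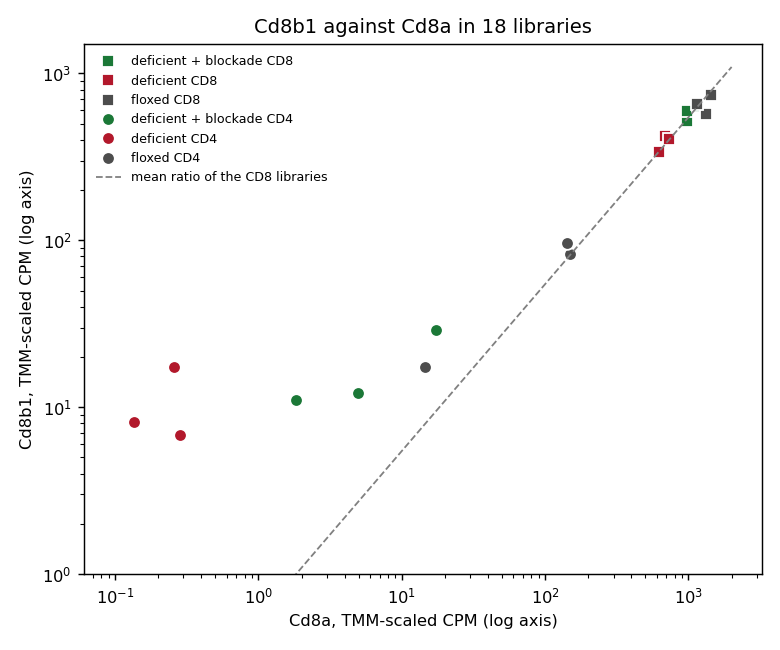
Cd8b1 against Cd8a in each of the 18 libraries, both in TMM-scaled CPM on log axes; squares are CD8 and circles CD4 libraries, and the dashed line is the mean ratio of the CD8 libraries. The CD8 libraries and 2 floxed CD4 libraries lie near the line, while the deficient CD4 libraries lie far above it, at 6.77 to 17.4 CPM of Cd8b1 with at most 0.282 CPM of Cd8a.

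Markers of conventional dendritic cells and the CD8 chains both had their highest means in floxed CD4 libraries, but the other groups did not follow the same order. The sum of 7 conventional dendritic cell genes averaged 635 ± 154 CPM with blockade, 917 ± 203 in deficient and 2328 ± 1004 in floxed CD4 libraries, and none of the 7 was at 0 in a group. With blockade over deficient this sum had a lower mean, but its libraries overlapped (478 to 786 against 693 to 1089.5 CPM). Of the 7 genes 1 was called lower there by edgeR, beside 0.142% of all tested genes called in either direction. Without the 3 libraries rich in ribosomal-like counts 0 were called. Cd8a was higher in every blockade library, while Cd8b1 overlapped. Of the 7, H2-Ab1, an MHC class II chain (-1.43 ± 0.32, edgeR adjusted p = 0.01), and Batf3, a dendritic transcription factor (-1.93 ± 0.55, 0.0244), were called lower in deficient against floxed CD4 libraries. Batf3 was not called without floxed CD4 replicate 3 (-1.16, adjusted p = 0.27) or without any 1 deficient CD4 library, nor H2-Ab1 without deficient CD4 replicate 1 (-1.28, adjusted p = 0.0581). The floxed library with the least Cd8a, replicate 1, had 2042 CPM of this sum, between the 1498 CPM of replicate 2 and the 3444 CPM of replicate 3. Clec9a and Xcr1 are receptors that define the dendritic subset which can carry CD8 alpha. Clec9a had 0.697, 0 and 0.0954 CPM with blockade, 4.41, 2.85 and 4.52 CPM in deficient libraries and 1.68, 3.56 and 8.2 CPM in floxed CD4 libraries. Xcr1 had 1.83, 1.2 and 1.72 CPM with blockade, 1.94, 0.679 and 3.95 in deficient libraries and 2.52, 9.45 and 3.73 in floxed libraries, highest in floxed replicate 2, which also had the most Cd8a. Deficient and floxed libraries overlapped for both receptors (adjusted p = 0.388 for Xcr1). For Clec9a every blockade library lay below every deficient library, while for Xcr1 these groups overlapped. The sum of 5 plasmacytoid dendritic cell genes averaged 23.3 ± 4.36 CPM with blockade, 130 ± 105 in deficient and 45 ± 15 in floxed CD4 libraries. In floxed CD4 libraries Xcr1 and Clec9a averaged 5.23 and 4.48 CPM, a small part of the sum of the 7. The sum of 8 macrophage and monocyte genes was also highest in floxed CD4 libraries, at 14080.1 ± 5444 CPM. It averaged 2954 ± 798 CPM with blockade and 3223 ± 712 in deficient CD4 libraries. How far macrophages add to the dendritic cell sum was not tested. The part of any of these cells in the Cd8a difference was not tested.

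Cd4 itself rose in treated deficient CD4 libraries. It had 972, 1089 and 795 CPM in deficient blockade CD4 libraries, 637, 638 and 529 CPM in deficient ones and 433, 469 and 233 CPM in floxed ones, and the 3 groups did not overlap. Treated deficient against floxed libraries gave a log2 fold change of 1.33 ± 0.32 (edgeR adjusted p = 0.0138), and Cd4 was 1 of the 3 members called there, beside 12.2% of all tested genes. Without floxed CD4 replicate 3 the log2 fold change was 1.07 (adjusted p = 0.0622), and without deficient blockade CD4 replicate 1 it was 1.3 (adjusted p = 0.0534). The steps between them were not called in the main edgeR fit: 0.67 ± 0.32 for deficient over floxed (adjusted p = 0.211) and 0.66 ± 0.31 for blockade over deficient (adjusted p = 0.45). Limma voom called the first (0.72, adjusted p = 0.0223). Without a filter edgeR called both (0.67, adjusted p = 0.000182, and 0.68, adjusted p = 0.000626). The pan T sum averaged 4936 ± 317 CPM with blockade, 3972 ± 347 in deficient and 3488 ± 784 in floxed CD4 libraries. Relative to it, Cd4 stood at 0.192 ± 0.0219 with blockade, 0.153 ± 0.0276 in deficient and 0.107 ± 0.0161 in floxed libraries (SD, n = 3 each). The blockade libraries, at 0.173 to 0.216, still lay above the floxed ones at 0.0899 to 0.122.

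Zbtb7b (chr3:89377644-89394776), which encodes ThPOK, was called higher with blockade in the CD8 sort, also in all 27 alternatives tried. In the CD8 sort it had 68.7, 68.6 and 53.9 CPM in deficient blockade libraries, 28.6, 42.2 and 38 in deficient libraries and 28, 39 and 32.3 in floxed libraries. Every blockade library lay above every other CD8 library. Blockade over deficient gave a log2 fold change of 0.81 ± 0.15 (edgeR adjusted p = 0.00133), and treated deficient over floxed gave 0.93 ± 0.15 (adjusted p = 0.00238). Zbtb7b was the only member called in either comparison, beside 13.8% of all tested genes called with blockade in the CD8 sort (8.25% called higher) and 5.01% called in treated deficient against floxed CD8 libraries. Deletion alone left a log2 fold change of 0.12 ± 0.15 (adjusted p = 0.64), with a 95% interval of -0.2 to 0.45. Without the 3 libraries rich in ribosomal-like counts, treated deficient over floxed gave 0.79 (adjusted p = 0.0578).

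In the CD4 sort Zbtb7b stood at 199.9, 212 and 181 CPM in deficient blockade libraries, 166, 153 and 136 in deficient libraries and 151, 155 and 144 in floxed libraries. Blockade libraries were again above all others, yet the log2 fold change of 0.38 ± 0.15 over deficient libraries was not called (edgeR adjusted p = 0.332). The difference of the blockade effect between the sorts, CD8 minus CD4, was 0.43 ± 0.21 (adjusted p = 0.419). Even with blockade, CD8 libraries held less Zbtb7b than CD4 libraries, by a log2 fold change of -1.64 ± 0.15 (adjusted p = 3.32e-07). The gap was -2.07 ± 0.16 in deficient mice (adjusted p = 2.21e-08) and -2.17 ± 0.16 in floxed mice (adjusted p = 2.85e-09).

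Runx3 (chr4:135120652-135177990), the factor of the CD8 lineage, stood apart in 1 library. The CD8 sort had 18.1, 11.6 and 28.9 CPM in deficient blockade libraries, 17.6, 18.6 and 26.9 in deficient libraries and 126, 22 and 30.9 in floxed libraries. All 9 CD4 libraries lay between 19 and 28 CPM. Floxed CD8 replicate 1, with 888 counts of Runx3, also held 465 CPM of Cd3e, a chain of the T cell receptor complex, against 108 and 88 CPM in the other 2 floxed CD8 libraries. The call of lower Runx3 in deficient against floxed CD8 libraries (log2 fold change -1.51 ± 0.50, edgeR adjusted p = 0.0473) was near the threshold and held in 3 of the 18 fits that left out 1 library. Without that library the log2 fold change was -0.34 (adjusted p = 0.473), and without any of the other libraries whose loss ended the call it lay between -1.40 and -1.72. Likewise Runx3 was higher in the CD8 sort of floxed mice than in their CD4 sort by 1.49 ± 0.50 (adjusted p = 0.0292), and without that library by 0.32 (adjusted p = 0.421). This call held in 14 of the 18 fits that left out 1 library, and with a replicate block of condition and number it was 1.06 (adjusted p = 0.0835). The sorts of deficient mice differed by -0.05 ± 0.51 (adjusted p = 0.969), and those of treated deficient mice by -0.15 ± 0.51 (adjusted p = 0.885).

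Runx1 (chr16:92601466-92826149), which acts before the lineages part, was lower in CD8 than in CD4 libraries. It had 20, 18.2 and 20.6 CPM in deficient blockade CD8 libraries, 17.5, 22.3 and 34.4 in deficient ones and 47, 23.2 and 33.4 in floxed ones. The CD4 sort had 51.9, 96.5 and 46.8 CPM with blockade, 42.3, 44.4 and 51.4 in deficient libraries and 62.3, 51.5 and 80.5 in floxed libraries. All CD4 libraries but deficient replicate 1 and 2 and deficient blockade replicate 3 lay above every CD8 library. CD8 libraries were lower than CD4 libraries by a log2 fold change of -1.70 ± 0.30 with blockade (edgeR adjusted p = 0.000568), -0.90 ± 0.29 in deficient mice (0.046) and -0.91 ± 0.29 in floxed mice (0.0183). The call in deficient mice held in 5 of the 18 fits that left out 1 library, and that in floxed mice was lost without floxed CD4 replicate 3 (-0.72, adjusted p = 0.0901), floxed CD8 replicate 2 (-0.67, 0.0861) or floxed CD8 replicate 3 (-0.90, 0.0504). No deletion or blockade contrast of Runx1 passed the threshold in either sort.

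Start site windows of 5 of the 8 members, taken from RefSeq on GRCm38.p6, run from 250 bases before to 50 after a start and give 8 windows. The windows shown belong to Runx3 and Runx1, which were both highest in the same CD8 library, and to Zbtb7b and Cd8a, which differed between conditions. Capitals mark the letters TGTGGT or, on the other strand, ACCACA, the core that RUNX proteins bind.
Runx3, chr4:135120395-135120694, plus strand: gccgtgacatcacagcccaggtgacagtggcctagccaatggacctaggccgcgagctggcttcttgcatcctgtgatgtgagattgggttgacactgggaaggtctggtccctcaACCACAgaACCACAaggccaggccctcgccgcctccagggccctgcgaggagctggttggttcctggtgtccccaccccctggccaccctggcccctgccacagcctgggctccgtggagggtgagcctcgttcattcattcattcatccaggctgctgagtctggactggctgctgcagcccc
Runx1, chr16:92826025-92826324, minus strand: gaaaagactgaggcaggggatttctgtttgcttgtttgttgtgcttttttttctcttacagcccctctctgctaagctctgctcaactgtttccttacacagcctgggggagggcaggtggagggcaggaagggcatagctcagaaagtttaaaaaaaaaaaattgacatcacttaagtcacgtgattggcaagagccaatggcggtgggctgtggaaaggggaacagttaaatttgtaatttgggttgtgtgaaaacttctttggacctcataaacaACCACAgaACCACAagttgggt
Zbtb7b, chr3:89387622-89387921, minus strand: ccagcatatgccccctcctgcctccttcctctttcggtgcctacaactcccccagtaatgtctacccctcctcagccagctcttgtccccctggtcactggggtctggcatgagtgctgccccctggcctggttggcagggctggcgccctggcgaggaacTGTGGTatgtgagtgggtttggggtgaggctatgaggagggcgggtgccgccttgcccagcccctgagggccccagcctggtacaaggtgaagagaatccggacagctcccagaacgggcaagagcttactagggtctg
Cd8a, chr6:71373177-71373476, plus strand: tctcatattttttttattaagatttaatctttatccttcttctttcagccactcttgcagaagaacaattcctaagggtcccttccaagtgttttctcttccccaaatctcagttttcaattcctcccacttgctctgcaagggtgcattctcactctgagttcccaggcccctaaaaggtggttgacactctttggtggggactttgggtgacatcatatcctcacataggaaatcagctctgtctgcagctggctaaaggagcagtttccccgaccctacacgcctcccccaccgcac
The core stands in 16.8% of 32851 such windows. The windows of Runx3 and Runx1 both hold it as the pair ACCACAGAACCACA, read from the Runx3 window, before the start in Runx3 and after it in Runx1, a string found on either strand in 4 of the 32851 windows (0.0122%). Zbtb7b holds the core once in the window shown. Runx3, Runx1 and Zbtb7b each have a second window, not shown, without these letters, as have the windows of Cd8a and Gata3, so that 3 of the 8 windows hold the core. A match of letters is a description and not a site of binding.

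Gata3 (chr2:9857078-9890034) was low in the CD8 sort and lowest in deficient mice. It had 13, 12.8 and 13.1 CPM in deficient blockade CD8 libraries, 10.5, 9.31 and 10.1 in deficient ones and 26.5, 17 and 13 in floxed ones. Deficient libraries lay below all others, with a log2 fold change of -0.92 ± 0.25 against floxed libraries (edgeR adjusted p = 0.0121). Gata3 and Runx3 were the 2 members called in that comparison, beside 19.3% of all tested genes called in either direction and 9.61% called lower. Without floxed CD8 replicate 1 the log2 fold change of Gata3 was -0.61 (adjusted p = 0.0897), and without deficient CD8 replicate 2 it was -0.87 (adjusted p = 0.0506). CD4 libraries had 36.9, 43.9 and 31.7 CPM with blockade, 22.3, 20.9 and 35.6 in deficient mice and 28.9, 25.8 and 24.8 in floxed mice, with no call between them. CD8 libraries were lower than CD4 libraries by -1.52 ± 0.25 with blockade (edgeR adjusted p = 0.000168) and -1.38 ± 0.25 in deficient mice (0.000613). The gap of -0.49 ± 0.24 in floxed mice was not called (0.111), but it was -0.81 (0.0111) without floxed CD8 replicate 1.

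**Figure D3:**
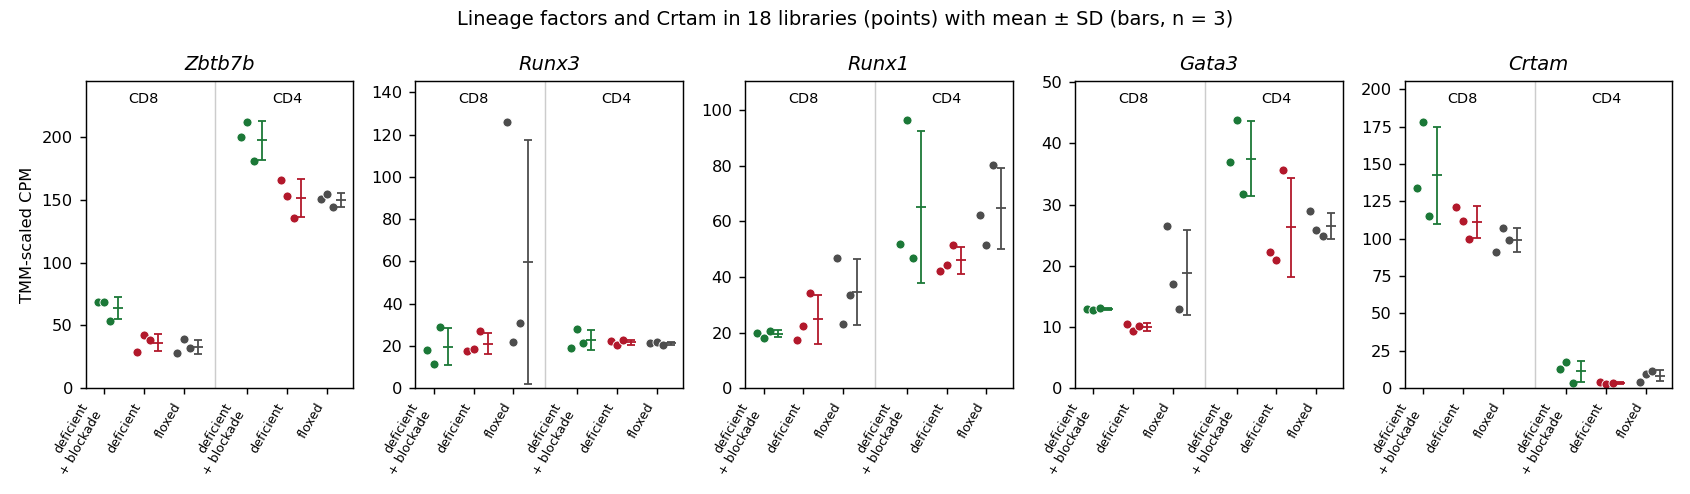
Levels of 4 transcription factor genes and Crtam in TMM-scaled CPM on linear axes that start at 0 and differ in scale, by sort and condition. Points are libraries and bars give mean and SD of 3. Zbtb7b with blockade stands at 53.9 to 68.7 CPM in the CD8 sort, above all other CD8 libraries, and 1 floxed CD8 library stands apart for Runx3 at 126 CPM.

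The balance of the opposed factors, Zbtb7b over Runx3 taken per kilobase of gene model, did not overlap between the sorts. It ran from 0.199 to 5.31 in the 9 CD8 libraries and from 5.4 to 9.42 in the 9 CD4 libraries, so that the sorts nearly met. The nearest values came from deficient blockade CD8 replicate 2 and deficient CD4 replicate 3, with 25.6% and 11.8% ribosomal-like counts. Runx3 itself was not called between the sorts in deficient mice with or without blockade, while Zbtb7b was called in every condition. Within the CD8 sort it was 3.39, 5.31 and 1.67 with blockade, 1.45, 2.03 and 1.26 in deficient libraries and 0.199, 1.59 and 0.936 in floxed libraries. The 2 highest CD8 values were both from blockade libraries. Every blockade library lay above every floxed one, while the deficient libraries overlapped with both other groups. Per kilobase, the order of mean levels in floxed CD8 libraries was Cd8b1 (441 ± 57.2 CPM per kb), Cd8a (358 ± 41.9), Crtam (19.3 ± 1.6), Runx3 (11.9 ± 11.6), Zbtb7b (5.93 ± 0.99), Gata3 (4.73 ± 1.74), Runx1 (2.92 ± 1.01) and Cd4 (0.38 ± 0.388). Cd8b1 and Cd8a, and each pair of neighbours from Crtam to Runx1, differed by less than the sum of their SDs. The order in floxed CD4 libraries opened with Cd4 (93.8 ± 31.6 CPM per kb), Cd8b1 (44.2 ± 28.4), Cd8a (28 ± 20.8) and Zbtb7b (26.8 ± 0.994). Below them stood Gata3 (6.66 ± 0.534), Runx1 (5.48 ± 1.24), Runx3 (4.24 ± 0.131) and Crtam (1.6 ± 0.727). In that order Zbtb7b and Gata3, and Runx3 and Crtam, were the pairs of neighbours apart by more than the sum of their SDs.

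Crtam tracked the CD8 sort. It had 134, 178 and 115 CPM in deficient blockade CD8 libraries, 121, 112 and 99.6 in deficient ones and 90.8, 107 and 99 in floxed ones, and all groups overlapped with a neighbour. The CD4 sort had 12.6, 17.4 and 3.62 CPM with blockade, 3.89, 2.85 and 3.67 in deficient libraries and 4.03, 9.45 and 11.2 in floxed libraries. CD8 over CD4 gave log2 fold changes of 3.76 ± 0.40 with blockade (edgeR adjusted p = 1.27e-05), 5 ± 0.46 in deficient mice (2.85e-06) and 3.61 ± 0.41 in floxed mice (5.41e-06). Within the CD4 sort, deficient libraries all lay below floxed ones (log2 fold change -1.23 ± 0.50), yet the adjusted p was 0.14, and blockade over deficient gave 1.59 ± 0.48 (adjusted p = 0.229). DESeq2 called both, with -1.25 (adjusted p = 0.0202) and 1.66 (adjusted p = 0.00842), and edgeR called both without deficient blockade CD4 replicate 3 (-1.26, adjusted p = 0.012, and 2.11, adjusted p = 0.00349). The first was also called without floxed CD4 replicate 1 (-1.61, adjusted p = 0.0447). Scrib, a polarity protein that CRTAM recruits, was higher in deficient than in floxed CD4 libraries by 0.48 ± 0.13 (adjusted p = 0.0192), a call lost without any 1 floxed CD4 library or deficient CD4 replicate 2 or 3, with adjusted p-values up to 0.0764, while Cadm1, the ligand of CRTAM, had values of 1.22 ± 0.69 in the CD8 sort (0.25) and 0.21 ± 0.68 in the CD4 sort (0.898) for deletion.

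Crtam lies on chromosome 9 (chr9:40969691-41004628), and 9 other tested genes lie within 1 Mb of it. Of these, 1 was called lower in deficient against floxed CD8 libraries and 3 were called lower in the CD4 sort, beside 9.61% and 7.06% of all tested genes; the CD8 count is near that background. Ubash3b, whose start is 41 kb from Crtam and which encodes a phosphatase that dampens T cell receptor signalling, was among them in both sorts, by -1.45 ± 0.12 in CD8 (edgeR adjusted p = 2.87e-07) and -0.38 ± 0.12 in CD4 libraries (0.0387). The CD4 call was lost in 4 of the 18 fits that left out 1 library, with adjusted p-values up to 0.144. Blockade raised it in the CD8 sort by 0.88 ± 0.12 (adjusted p = 5.99e-05).

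**Figure D4:**
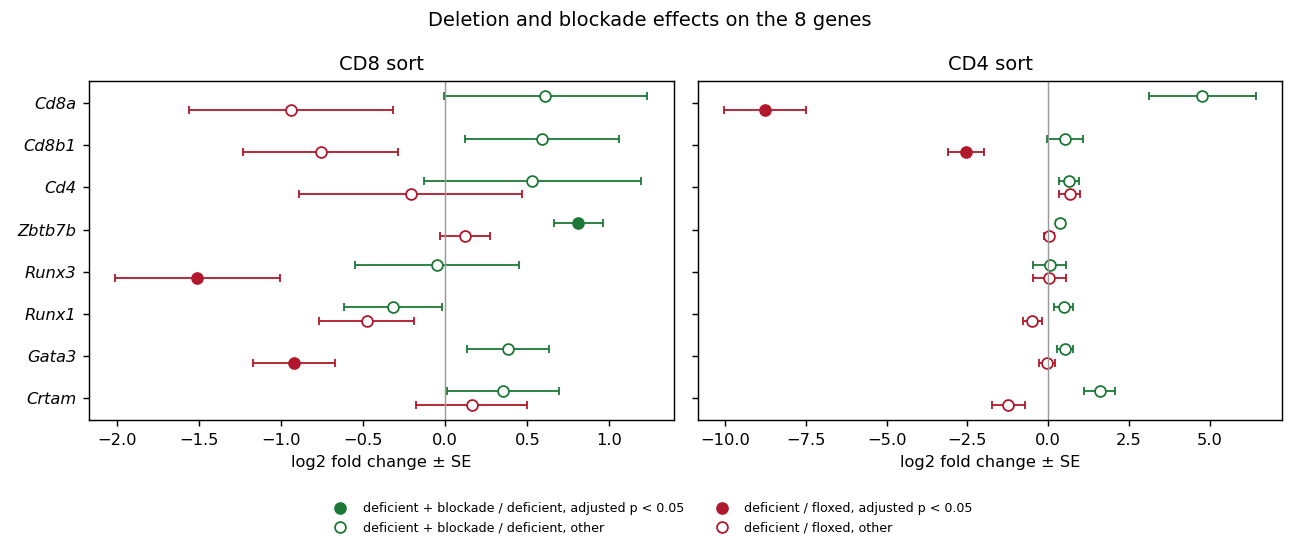
Log2 fold change with SE for the 8 genes in the CD8 sort (left) and the CD4 sort (right), on axes of different width. Green points are deficient with blockade over deficient, red points are deficient over floxed, and filled points passed an edgeR adjusted p of 0.05. Cd8a in the CD4 sort has the widest fold changes, -8.77 for deletion and 4.77 for blockade.

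Counted over the members, groups did not overlap for 4 of 8 with blockade in the CD8 sort (44.1% of all tested genes) and for 3 of 8 in the CD4 sort (20%, 2811 of 14080). With deletion they did not overlap for 3 of 8 in the CD8 sort (34.2%) and for 5 of 8 in the CD4 sort (28.0%). In the CD4 sort with blockade none of the 8 was called by edgeR, as were 0.142% of all tested genes. Cd8a, Crtam, Zbtb7b and Gata3 had an unadjusted p under 0.05 there, and DESeq2 called Cd8a and Crtam. CD8 against CD4 libraries, where the sort itself uses the coreceptors, had 7 of 8 members called in each condition, beside 20.4% of all tested genes with blockade, 15.6% in deficient and 39.1% in floxed mice. The member left out was Runx3 with blockade and in deficient mice, and Gata3 in floxed mice.

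Deficient and floxed libraries differed in Cd8a by unlike amounts in the 2 sorts. The log2 fold change in CD8 libraries minus that in CD4 libraries was 7.84 ± 1.52 (edgeR adjusted p = 0.00503). Cd8a was the only member called in this contrast, beside 11.6% of all tested genes. Limma voom gave it an adjusted p of 0.187, and a replicate block of condition and number gave 7.48 (adjusted p = 0.0506). Whether the Cd8a reads of the CD4 sort came from CD4 T cells or from other cells was not tested. For Cd8b1 the same difference was 1.78 ± 0.71 (adjusted p = 0.143), and without floxed CD4 replicate 1 it was 2.28 (adjusted p = 0.00632). No member was called for a difference of the blockade effect, beside 0.803% of all tested genes, and at an unadjusted p under 0.05 only Cd8a passed (-4.16 ± 1.89, adjusted p = 0.399), which DESeq2 called (-4.61, adjusted p = 0.0216).

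The wider network of lineage factors, 17 genes, had 3 called higher and 6 lower in deficient against floxed CD8 libraries, beside 19.3% of all tested genes called. Leaving out 1 library gave 1 to 5 higher and 3 to 6 lower. Tox, needed for the CD4 lineage in the thymus and raised in exhausted cells, fell by 2.23 on the log2 scale (SE 0.27, edgeR adjusted p = 2.36e-05), and Runx2 fell by 2.48 (SE 0.54, 0.00597). Runx2 stood at 259 CPM in floxed CD8 replicate 1, against 56 and 49 CPM in the other 2 floxed CD8 libraries, and without replicate 1 its log2 fold change was -1.29 (adjusted p = 0.00128). Smarca4, the motor of the BAF remodelling complex, fell by 0.73 (SE 0.15, 0.00183), and Tcf12, an E protein, was higher by 0.57 ± 0.13 (0.00328). The median log2 fold change of the 17 was -0.07, beside -0.01 over all tested genes. In CD4 libraries 1 was higher and 1 lower with deletion, a share near the 11.7% of all tested genes, namely Tcf12 (0.56 ± 0.13, adjusted p = 0.00647) and Tox (-1.14 ± 0.28, adjusted p = 0.0129). Neither held in every fit: Tcf12 had an adjusted p of 0.0508 without floxed CD4 replicate 3, and Tox 0.0722 without deficient CD4 replicate 1. Blockade raised 1 and lowered 3 of the 17 in CD8 libraries, beside 13.8% of all tested genes called: Cbfb, the partner of RUNX proteins, was higher by 0.69 ± 0.14 (edgeR adjusted p = 0.00214), while Tcf12 (-0.53 ± 0.13, 0.00788), Tcf7 (-1.97 ± 0.49, 0.0171) and Lef1 (-1.54 ± 0.41, 0.0222) were lower. The calls of Tcf7 and Lef1 were lost without deficient CD8 replicate 1 and without deficient blockade CD8 replicate 1 or 2, at adjusted p-values of 0.0559 to 0.0783 for Tcf7 and 0.0713 to 0.0963 for Lef1, and that of Tcf12 without deficient blockade CD8 replicate 2 (0.0569).

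Many genes of a cytotoxic list differed in the CD8 sort, both with deletion and with blockade. Of 12 cytotoxic genes, 7 were called in deficient against floxed CD8 libraries, all lower, with a median log2 fold change of -0.93, beside 9.61% of all tested genes called lower and a median of -0.01. The smallest adjusted p-values there were those of Nkg7, a granule protein (-1.14 ± 0.11, edgeR adjusted p = 1.68e-06), and of Gzmk, Gzmb and Cst7. With blockade 8 were called, all higher, with a median of 0.93, beside 8.25% of all tested genes called higher, beginning with Gzmk (2.86 ± 0.26, adjusted p = 1.1e-06). Without the 3 libraries rich in ribosomal-like counts, 6 were called lower with deletion and 6 higher with blockade. Natural killer genes differed in the same sort: the sum of 5 averaged 322 ± 35.3 CPM with blockade, 128 ± 10.7 in deficient and 167 ± 29.8 in floxed CD8 libraries (SD, n = 3 each), and 2 of the 5 were called higher with blockade. With deletion 1 was called higher and 1 lower, beside 19.3% of all tested genes called. The 5 include Gzma, a granzyme gene like Gzmb and Gzmk, so their sum does not measure natural killer cells alone. Of 8 macrophage and monocyte genes, 7 were called lower with blockade in the CD8 sort, beside 779 of all 14080 tested genes. Limma voom called 5 of the 8 lower, and without the 3 libraries rich in ribosomal-like counts 1 was called lower. The part of these cells in the cytotoxic differences was not tested. In CD4 libraries 3 of the 12 cytotoxic genes were called with deletion, all lower, beside 7.06% of all tested genes, and 1 to 4 when 1 library was left out. Of 12 helper genes, deletion raised 2 and lowered 3 in CD8 libraries, beside 19.3% of all tested genes called. Blockade raised 3 and lowered 1 in CD8 libraries, beside 13.8% of all tested genes called. In CD4 libraries deletion raised 1 and lowered 1. The CD4 count is near the 11.7% of all tested genes called there, and was 0 in the fit of the CD4 libraries alone. Ctla4, an inhibitory receptor that is also a target of the antibodies, was the first of them by adjusted p in the CD8 sort, with -1.30 ± 0.18 for deletion (adjusted p = 5.11e-05) and 1.67 ± 0.18 for blockade (7.27e-06). With blockade in CD4 libraries edgeR called 0 of the 43 genes of these lists and of the CRTAM partners; 10 had an unadjusted p under 0.05, and DESeq2 called 1.

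Across libraries of 1 sort the members fell into few patterns, given as Pearson correlations of log2(CPM + 1) over 9 libraries that share their groups and depth. Cd8a and Cd8b1 had r = 0.94 over the CD8 libraries and 0.93 over the CD4 libraries. Cd4 and Zbtb7b had 0.17 over the CD8 libraries and 0.82 over the CD4 libraries. Runx1 and Runx3 had 0.86 over the CD8 libraries, where both were highest in floxed replicate 1, and 0.55 over the CD4 libraries. Among all genes of at least 5 CPM, those most like Cd8a over the CD8 libraries were Ubash3b (0.983), Aspm (0.975) and Oxsr1 (0.967). Those most like Cd4 over the CD4 libraries were Pag1 (0.992), Ppp1r16b (0.989) and Nfkb2 (0.984), and those most like Zbtb7b were Sipa1l1 (0.981), Tnrc6a (0.965) and Prkcsh (0.949).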

How the data were processed

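The deposited values are raw counts of reads per gene, 1 table per library, used as deposited. Per the file headers, the authors counted with featureCounts 1.5.1 at strand option 2 on Ensembl release 87 gene models; per the submitters' processing notes, the build was GRCm38, and STAR and DESeq2 were also used. Symbols came from GENCODE M21 (49412 of 49671 IDs), and coordinates are those of GRCm38. Reads of antisense genes, counted by strand, were few beside the members' own.

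All 18 libraries, 6 groups of 3, entered 1 edgeR 4.0.16 quasi-likelihood fit (R 4.3.3, filterByExpr, TMM, robust; 12 residual degrees of freedom, 14080 genes tested, common biological coefficient of variation 0.229). Adjusted p-values are Benjamini-Hochberg over all tested genes, called under 0.05. The steps were tested on simulated data. Alternatives were RLE scaling, 2 other filters, DESeq2 1.42.0, limma 3.58.1 voom, each sort alone, replicate blocks, totals without ribosomal-like models and leaving out each library. Since no label ties pools to animals, each p-value reflects the scatter of these pools alone, part of which may be technical. The labels do not tell if equal replicate numbers pair the libraries: deviations from group means correlated at -0.16 to 0.37, and 7 of 9 pairs of both sorts within a condition (all 3 of deficient mice) and 9 of 36 other pairs were over 0.1. The main fit has no block because the labels state no pairing, a question these correlations do not settle. Fits with a block are given below, where the Cd8a difference of deletion effects had an edgeR adjusted p of 0.0506.

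The members and the lists (lineage network, cytotoxic, helper, CRTAM partners, cell markers) were chosen with earlier results of these data known. From each list, up to 4 called genes with the smallest adjusted p could be named. The genes most like a member are the 3 with the highest correlation among those of at least 5 CPM. Clec9a, Xcr1, H2-Ab1, Batf3, the pan T genes and Ubash3b were singled out after their values were seen.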

Additional observations from a re-analysis of the deposited data

Results flagged for a closer look

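Cd8a was flagged because deficient and floxed libraries differed by unlike amounts in the 2 sorts, by a test of the difference itself. The log2 fold change in CD8 libraries minus that in CD4 libraries was 7.84 ± 1.52 (edgeR adjusted p = 0.00503). With a replicate block of condition and number it was 7.48 (adjusted p = 0.0506). Its parts were -0.94 ± 0.62 in CD8 and -8.77 ± 1.26 in CD4 libraries, deficient over floxed. Cd8a values did not overlap between deficient and floxed libraries in either sort. The CD4 part rests on 4 counts in 3 deficient libraries, against 1748 in 3 floxed libraries.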

How the results depend on the processing

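The members called by edgeR were 2 for deletion in CD8 and 2 in CD4, 1 for blockade in CD8 and 0 in CD4, 1 for treated deficient against floxed in CD8 and 3 in CD4, 1 for the difference of deletion effects and 0 for that of blockade effects. Without a filter these counts were 4 and 4 for deletion, 3 and 3 for blockade, 3 for treated CD8, and 4 and 2 for the differences. DESeq2 called 2 for blockade in CD4, 2 for treated CD8 and 1 for the difference of blockade effects. Limma voom called 1 for deletion in CD8 and 0 for the difference of deletion effects. Fits of a sort alone called 3 for blockade in CD8 and 1 for deletion in CD4. With totals that leave out ribosomal-like models, deletion in CD8 had 1. Without the 3 libraries over 5% ribosomal-like counts, an alternative chosen after seeing the data, deletion in CD8 had 0, deletion in CD4 had 1 and treated CD8 had 0. Leaving out 1 library at a time gave 0 to 2 for deletion in CD8, 2 to 3 in CD4, 1 for blockade in CD8, 0 to 1 in CD4, 1 to 3 for treated CD8, 1 to 3 for treated CD4, 1 to 2 for the difference of deletion effects and 0 to 1 for that of blockade effects. Of 2376 member values under alternatives, 2270 kept their side of the threshold, 39 newly passed it, 67 no longer did, and none that was called changed sign. Over all genes, the 20 called for blockade in CD4 became 541 without a filter, 177 with DESeq2 and 4 without those 3 libraries. The 706 of treated CD8 became 1574, 1346 and 58, and 439 in the CD8 fit. The 113 of the difference of blockade effects became 665, 336 and 50. The causes of these changes were not tested.

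With the replicate number as a block, deletion in CD8 had 1 member called, and all genes called numbered 65 for blockade in CD4 and 179 for the difference of blockade effects. With a replicate block of condition and number, the difference of deletion effects had 0 members called and the difference of blockade effects 286 genes. Whether same-numbered libraries of both sorts share tumors is not given, so either fit may apply. The list counts and the genes that are no members were also refitted, an alternative chosen after seeing the data. Depth limits Cd8a in deficient CD4 libraries, at 1 or 2 counts each, and Cd4 in CD8 libraries, at 0 to 25 counts.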
